A study of Homo sapiens with 26 samples.

Results

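The genes described here are the replication-dependent core histones, the H2A, H2B, H3 and H4 genes of the histone clusters. They were chosen by name: every transcript of the deposited codon tables that carried an H2AC, H2BC, H3C or H4C symbol in the GENCODE annotation, or an older symbol of the same families. The rule found 52 of the 12325 transcripts, of which 13 encode H2A, 17 encode H2B, 11 encode H3 and 11 encode H4. Of these, 50 were found by their current symbol and 2, HIST1H2BN and HIST2H2BE, only by an older one. In the GRCh38 genome 38 members lie on chromosome 6, 11 on chromosome 1 and 1 on chromosome 12, and the location of the other 2 is not given here; 49 of the 52 have a single exon.

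The measurements come from Huh7 cells, an established human hepatoma line, given PF-06446846, a small molecule that acts on the translating ribosome, or DMSO as the vehicle. In study 1, cells received vehicle, 0.3 μM or 1.5 μM compound for 10 or 60 min, with 3 biological replicates of each of the 6 groups, and ribosome footprints were sequenced. In study 2, cells received vehicle or 1.5 μM for 60 min in 2 replicates, numbered 4 and 5, and both footprints and poly-A-selected mRNA fragments of the same samples were sequenced. No cycloheximide was given before harvest in either study. The p-values below measure the spread between these libraries of a single cell line.

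Core histones package newly copied DNA. A pair each of H2A, H2B, H3 and H4 forms the nucleosome core, and cells in S phase make these proteins from many near-identical gene copies. Their mRNAs end in a stem-loop that is bound by SLBP instead of a poly-A tail, so poly-A selection recovers them poorly.

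Depth was 6414227 to 22224137 coding-sequence reads per footprint library in study 1, 8888459 to 13736874 in study 2, and 15227654 to 22036358 per mRNA library. Core histones took 3.97 to 7.2% of the footprints in study 1 and 4.69 to 5.29% in study 2, but 0.107 to 0.160% of the mRNA reads. Footprints of hepatocyte markers were present in every library, with the 11 markers found of 12 summing to 20487 to 30901 CPM. The hepatocyte marker ALB, 3 of 4 fibroblast and all 4 leukocyte markers were not among the transcripts analysed, which does not by itself show that they were not expressed. The remaining fibroblast marker stayed at or below 0.255 CPM. Values below are reads per 1000000 coding-sequence reads after TMM scaling (CPM), with each footprint placed at the codon in the ribosomal P site and the start codon counted as codon 1.

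The members share reads. A footprint that matched up to 5 places equally well was counted at each of them, so H3C14 and H3C15 had the same reads at every codon, as had H4C14 and H4C15, which leaves 50 distinct members. Taking 28 bases as the length of a footprint, 4381 codons of the members (67.2%) had a sequence found at a single place in the transcripts with a sequence and drew 48.4% of the members' footprints, while 1813 codons matched 2 to 5 places and drew 51.3%. Sequences were at hand for 11270 of the 12325 transcripts. The others carried no GENCODE symbol, so further copies among them could be found only by an older name, as HIST1H2BN and HIST2H2BE were, and were not counted as a further place. The 321 codons that matched more than 5 places drew 0.283% and had a median of 0 reads. Class sums therefore count a shared footprint more than 1 time, and the values of close copies are not separate measurements. All footprints of H4C4 and H4C8 lay at codons with a sequence of their own, whereas 3 H3 and 2 H4 members had no such codon.

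The level of footprints per length varied widely within each class. In the study 2 vehicle libraries, footprints per 100 codons ranged from 103 CPM on H3C12 to 2473 CPM on H4C14 and its twin H4C15. By class the median was 543 CPM per 100 codons for H2A, 425 for H2B, 868 for H3 and 699 for H4. The highest per-length values were those of H2AC19 in its class, at 1766 CPM per 100 codons, and of H3C14 and H3C15 in theirs, at 2071. These levels count a shared read at each of its places. None of the footprints of H3C14, H3C15, H4C14 and H4C15 lay at codons with a sequence of their own. The order of members and of class medians therefore also depends on how many copies share reads. Relative to the poly-A mRNA reads of the same sample, footprints on core histones were many times those on other transcripts. The median ratio of footprints to mRNA reads over the 52 members was 39.1 in vehicle replicate 4 and 30.9 in replicate 5, against 0.948 and 0.957 over 9934 transcripts. The 16 replacement and linker histones, which are made outside the replication-dependent set or bind the linker DNA, had median ratios of 1.61 and 1.49, but its members fell into 2 ranges. The linker histones H1-1, H1-2, H1-3, H1-4 and H1-5, which are also made in S phase from mRNAs that end in the stem-loop, lay between 28.4 and 130. H1-5 was the highest of them, at 130 and 113, and in replicate 5 it stood above every core histone, while the other 4 lay within the core histone range. The other 11 lay between 0.396 and 2.32. Among core histones the ratio was highest for H3C10 in replicate 4, at 168 against 122 for H4C4, and for H4C4 in replicate 5, at 95.2 against 84.2 for H3C10. It was lowest in both for H4C3, at 11.2 and 11.0. Since the mRNA was selected by poly-A tail, how much of these ratios comes from translation and how much from mRNA left out of the library cannot be told apart.

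The H2B coding sequence held a change at a pair of neighbouring codons. With 1.5 μM PF-06446846, footprints accumulated at codons 59 and 60 of H2B in both studies and at both times, and the sum of footprints beyond codon 62 did not rise with them. Codon 60 reads ATG in all 17 H2B members, and codon 59 reads GCC in 14, GCT in 2 and GCA in 1. Codons 59 and 60 were picked out after the profiles of study 1 had been seen, and the libraries of study 2 had no part in that choice. The bases around codon 60 are given to show how far the copies can be told apart by sequence, as 28-base windows of the coding strand with codon 60 in capitals, read from the GRCh38 coding sequences of GENCODE release 44.
HIST1H2BN, H2BC18, H2BC26 and HIST2H2BE: tcgtccaaggccATGggcatcatgaact
H2BC11: tcgtccaaggccATGggcatcatgaatt
H2BC3: tcatccaaggccATGgggatcatgaatt
H2BC5: tcttccaaggcaATGgggatcatgaatt
H2BC12: tcctctaaggccATGggaatcatgaact
H2BC10: tcgtccaaggctATGgggattatgaact
H2BC17: tcatcgaaggccATGggcatcatgaact

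The first window is shared by 4 members and lies in H2BC26 at chr1:228458295-228458322 on the plus strand. The others lie within the coding sequences of H2BC11 at chr6:27132558-27132585 (minus strand), H2BC3 at chr6:26043465-26043492 (minus), H2BC5 at chr6:26158335-26158362 (plus), H2BC12 at chr6:27146606-27146633 (minus), H2BC10 at chr6:26273141-26273168 (plus) and H2BC17 at chr6:27893628-27893655 (plus). Across the 17 members there were 14 distinct windows at codon 60 and 13 at codon 59, which differed from each other at 1 to 6 bases (median 3) at codon 60 and 1 to 5 (median 3) at codon 59. Footprint lengths vary, so a shorter read can match several of these windows.

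At 10 min the summed H2B footprints at codons 59 and 60 were 579, 372 and 769 CPM in the vehicle libraries. With 0.3 μM they were 708, 1098 and 1503 CPM, and with 1.5 μM 2768, 3353 and 2994 CPM. All 3 libraries at 1.5 μM lay above all others, whereas the 0.3 μM and vehicle libraries overlapped. Vehicle and 0.3 μM libraries of the same replicate number deviated together, and within each of these 3 pairs the 0.3 μM library was the higher. The mean was 573 ± 198 CPM (SD, n = 3) with vehicle and 3038 ± 295 CPM (n = 3) with 1.5 μM, a 5.30-fold difference, and 1.5 μM stood 2.75-fold above 0.3 μM.

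At 60 min the same codons held 339, 868 and 754 CPM with vehicle, 1159, 1084 and 1826 CPM with 0.3 μM, and 3139, 4364 and 5156 CPM with 1.5 μM. The 3 dose groups did not overlap at this time, with means 2.08-fold above vehicle at 0.3 μM and 6.46-fold above it at 1.5 μM (653 ± 279 against 4219 ± 1016 CPM; SD, n = 3 each). In study 2 the values were 263 and 218 CPM with vehicle and 713 and 855 CPM with 1.5 μM, a 3.25-fold difference with no overlap (241 ± 31.9 against 784 ± 101 CPM; SD, n = 2 each). The mRNA libraries of study 2 gave 10.6 and 17.1 CPM with vehicle and 9.72 and 12.4 CPM with 1.5 μM, and overlapped. Leaving out any 1 library kept the fold between 4.51 and 6.39 at 10 min, 5.20 and 7.73 at 60 min, and 2.96 and 3.59 in study 2.

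**Figure D1:**
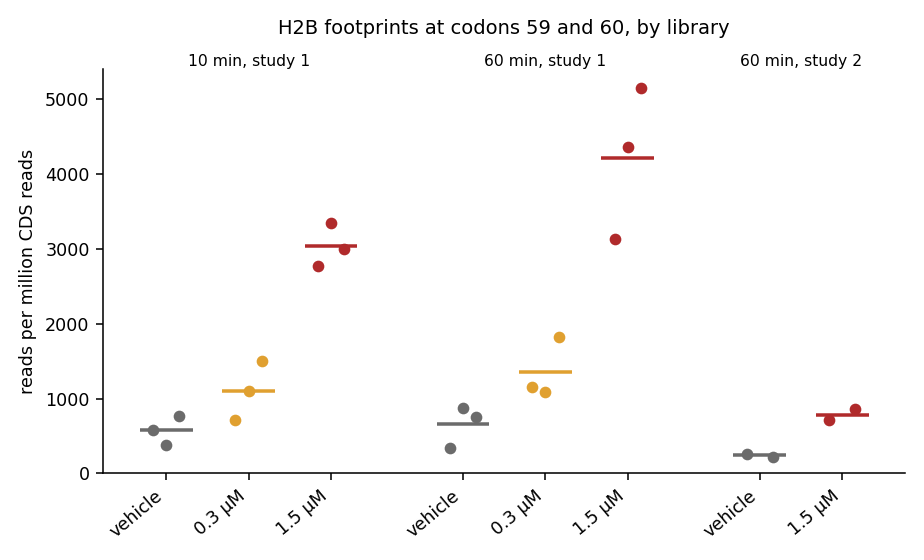
Summed H2B footprints at codons 59 and 60 (CPM, linear axis) in each library, by study, time and dose, with bars at the group means. The libraries at 1.5 μM sit between 2768 and 5156 in study 1 and at 713 and 855 in study 2, above every vehicle library of their own study and time.

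Expressed as a share of all H2B footprints, codons 59 and 60 held 4.36 to 6.50% in the 10 min vehicle libraries, 8.04 to 11.8% with 0.3 μM and 21.3 to 23.6% with 1.5 μM. At 60 min the shares were 2.91 to 5.73%, 7.46 to 11.0% and 21.9 to 27.8%, and in study 2 they were 1.97 to 2.52% and 6.59 to 7.01%. The share in vehicle libraries was lower in study 2, and the groups of each study and time were apart. Both parts of these shares count a shared footprint at each of its places. Counting each shared window a single time, codons 59 and 60 summed to 1512 CPM with 1.5 μM at 10 min, against 3038 CPM. When only codons with a sequence of their own were counted, the folds were 4.62 at 10 min, 5.28 at 60 min and 3.20 in study 2. Counting each shared window a single time gave 4.76, 5.75 and 3.13, and leaving out the 4 members of the shared window gave 4.29, 5.22 and 2.99, with no overlap of groups in any of these. These counts do not remove all shared reads, since a read shorter than 28 bases can match several windows. At codon 60 H2BC7 and H2BC8, each with a window of its own, held 7383 and 7391 footprints over the footprint libraries. Codon 60 of H2BC11, whose window differs from the one of 4 members only near its end, also counted as having a sequence of its own. It held a mean of 280 CPM with 1.5 μM at 10 min, of the 746 CPM at such codons.

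The codons next to the peak were also higher. Codon 58 was 4.39-fold higher with 1.5 μM at 10 min, 4.19-fold at 60 min and 1.84-fold in study 2, codon 61 was 2.84-, 2.24- and 1.59-fold higher, and codon 62 was 2.22-, 1.56- and 1.44-fold higher, each without overlap. Without replicate 3 of the vehicle the fold at codon 58 was 7.47 at 10 min. Codon 63 was 1.47-fold higher at 10 min and 1.40-fold in study 2 without overlap, and 1.73-fold at 60 min with overlap. Upstream, the sum of codons 1 to 57 was 1.39-fold higher at 10 min and 1.17-fold higher in study 2 without overlap, and stood at 1.00-fold with overlap at 60 min. From codon 63 to the end of the coding sequence the folds were 0.98 and 0.95 with overlap at 10 and 60 min, and 0.90 in study 2, where both treated libraries lay below both vehicle libraries.

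Smaller peaks upstream were higher in the same libraries. They were picked out with the values of both studies in view. Codon 26 (GAC or GAT) was 4.52-fold higher at 10 min, 2.41-fold at 60 min and 2.25-fold in study 2, codon 37 (AGC or AGT) 4.14-, 2.27- and 1.79-fold, codon 38 (TAC or TAT) 2.86-, 3.41- and 1.98-fold, and codon 48 (CAG or CAA) 3.78-, 2.19- and 2.15-fold, all without overlap in the class sum. Without replicate 3 of the vehicle the fold at codon 48 was 5.70 at 10 min. Over the 10 members with reads there, the fold at 60 min ranged from 0.85 in H2BC6 to 3.26 in H2BC11, and 6 of them overlapped with vehicle. At codon 48 the window shared by 8 places, 7 of them members, held 0 footprints, since reads matching more than 5 places were left out of the tables. Of the 114 H2B codons with at least 5 CPM on average, 9 were at least 1.5-fold higher in all 3 comparisons of 1.5 μM with vehicle, namely codons 26, 37, 38, 48, 49, 58, 59, 60 and 61. The same count was 1 of 122 codons for H2A (codon 71), 0 of 117 for H3 and 0 of 99 for H4. At codons 59 and 60 of the other classes, the folds at 10 min, 60 min and in study 2 were 1.00, 1.25 and 1.28 for H2A, 0.51, 0.90 and 1.06 for H3, and 1.51, 0.99 and 1.08 for H4.

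**Figure D2:**
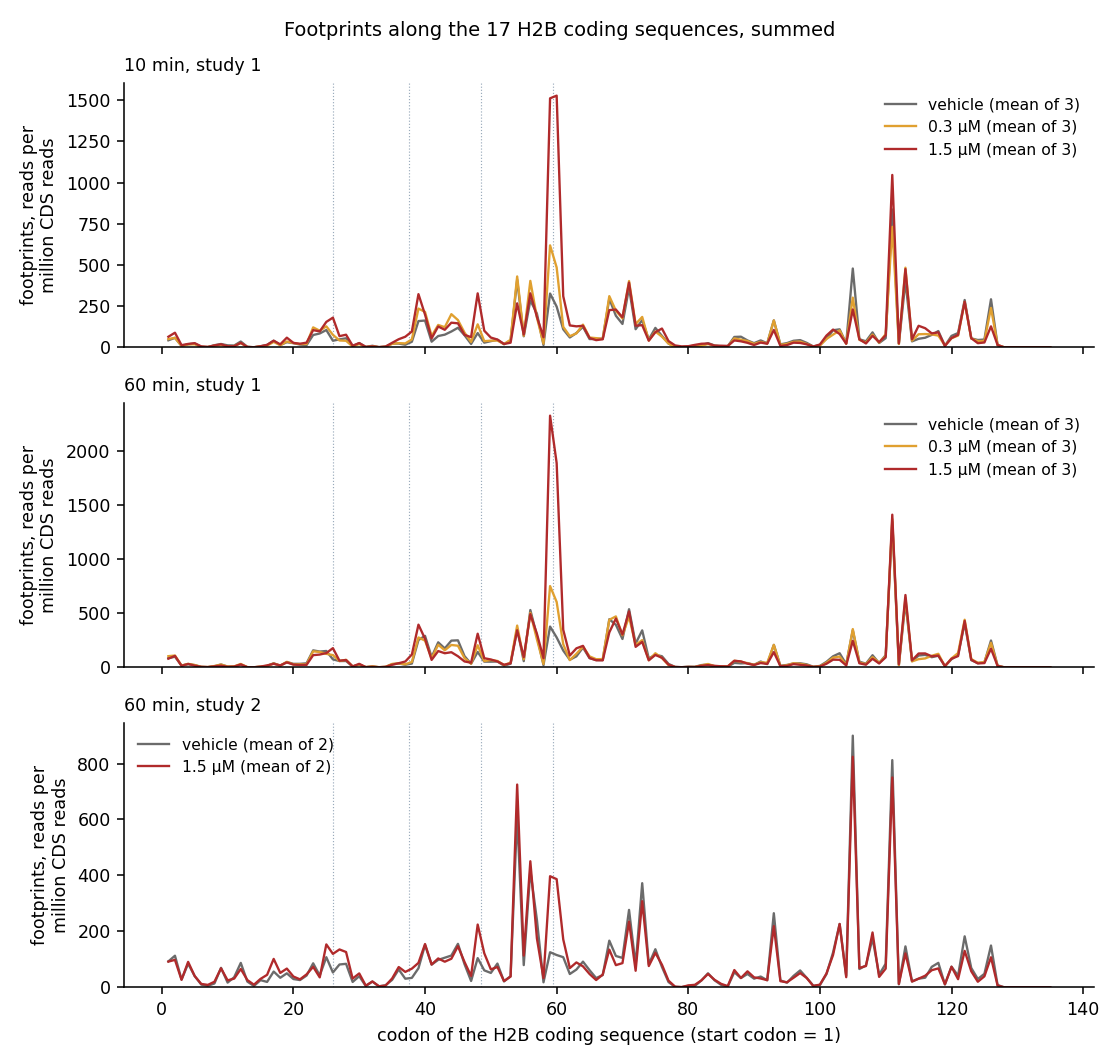
Group means of footprints at each codon of the 17 H2B coding sequences, summed over members, in CPM (linear axis), for vehicle, 0.3 μM and 1.5 μM where given, with dotted lines at codon 26, codons 37 and 38, codons 48 and 49, and codons 59 and 60. The vehicle and 1.5 μM curves part at codons 59 and 60, by 5.30-fold at 10 min, 6.46-fold at 60 min and 3.25-fold in study 2, while their sums from codon 63 onward stand at 0.98-, 0.95- and 0.90-fold.

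Most H2B members showed the change when read one by one, but close copies share reads and are not separate measurements. The study 1 counts come from the libraries in which codons 59 and 60 were picked out. Among codons with a mean of at least 30 reads over the libraries compared, every 1.5 μM library lay above every vehicle library at 16 of 16 members for codon 59 and 17 of 17 for codon 60 at 10 min, where 15.8% of all 48318 codons did. At 60 min the counts were 16 of 16 and 16 of 17, where 3.85% of 55853 codons did, and in study 2 they were 16 of 16 and 14 of 15, where 14.1% of 55398 did. Codon 59 of H2BC17 had too few reads in each comparison, as had codon 60 of H2BC9 and H2BC10 in study 2. The fold at codon 60 ranged over all 17 members from 2.59 to 7.34 (median 4.50) at 10 min, from 1.13 to 8.06 (median 6.01) at 60 min and from 1.17 to 5.81 (median 3.65) in study 2. With 0.3 μM the median fold at codon 60 was 1.83 at 10 min and 2.18 at 60 min. Every 0.3 μM library lay above every vehicle library in 11 of 17 members at 10 min, where 1.5% of 60326 codons did, and in 14 of the 16 with enough reads at 60 min, where 2.26% of 58353 did. At codon 59 the median folds were lower, 1.67 and 1.8, and 6 and 12 of the 16 members with enough reads were apart from vehicle at 10 and 60 min.

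H2BC11 showed the change at both codons. Its codon 59 held 6.24, 4.05 and 6.95 CPM with vehicle and 45.5, 45.0 and 44.5 CPM with 1.5 μM at 10 min, and 3.20 and 1.7 against 16.5 and 16.8 CPM in study 2. Its codon 60 rose from 39.5, 25.9 and 54.5 to 300.4, 278 and 262 CPM at 10 min, and from 19.1 and 16.7 to 57.4 and 69.2 CPM in study 2. For HIST2H2BE and the 3 members that share its window, codon 60 held 29.5, 19.1 and 44.7 CPM with vehicle and 231, 236 and 219 CPM with 1.5 μM at 10 min, and at 60 min 11.8, 49.9 and 47.2 against 258, 319 and 301 CPM. H2BC3, whose window has a single place, held 3.37, 2.55 and 4.63 against 17.5, 16.4 and 17.3 CPM at 10 min. In all 3 examples every treated library lay above every vehicle library. At codon 60 the window of H2BC11 differs from the one shared by HIST2H2BE and its 3 partners at 1 base near the end, so shorter reads can match both. H2BC11 and HIST2H2BE are therefore not separate measurements at that codon.

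H2BC17 differed from the other members. Its codon 60 rose at 10 min from 7.45, 6.23 and 8.46 to 22.7, 19.2 and 15.5 CPM, but at 60 min the libraries held 18.1, 27 and 9.13 CPM with vehicle and 29.6, 20.3 and 11.4 CPM with 1.5 μM. In study 2 they held 8.79 and 14.8 against 15.4 and 12.3 CPM, so the groups overlapped at 60 min in both studies. Its codon 59 drew 104 footprints over all 22 footprint libraries, with 0 to 13 in each, so a difference there was not detectable at this depth. H2BC17 was singled out after its values were seen, and its difference from the other members was not tested.

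**Figure D3:**
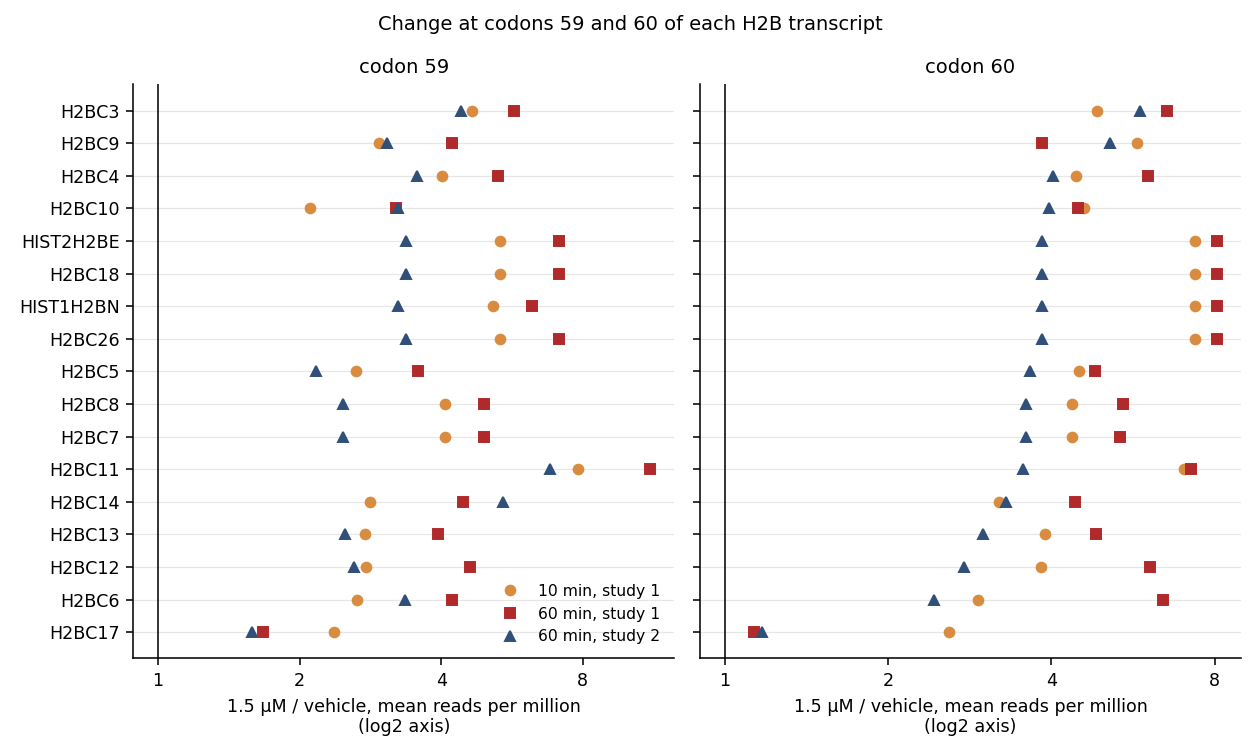
Ratio of the mean CPM with 1.5 μM to that with vehicle at codon 59 (left) and codon 60 (right) of each H2B transcript, on a log2 axis, with a marker for each of 10 min, 60 min and study 2. At codon 60 the ratios run from 2.59 to 7.34 at 10 min and from 1.17 to 5.81 in study 2, and H2BC17 sits lowest in all 3 comparisons.

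The single codons were then fitted with edgeR's quasi-likelihood test over every codon of all transcripts with enough reads (at least 30 in as many libraries as the smaller group holds), with Benjamini-Hochberg adjustment over all of them and a call at an adjusted p under 0.1. A codon could pass this minimum in either group alone, so the call of a rise can rest on few vehicle reads. In study 2, 48 of 3735 member codons were called and all were higher, where 0.396% of all 62316 codons were called. Of the 48, 44 lay in H2B and 27 at codons 59 and 60 (14 of the 16 tested at codon 59 and 13 of the 17 at codon 60), which stand for 20 distinct sequence windows. Without replicate 5 of 1.5 μM, 99 member codons and 0.851% of all codons were called. H2BC11 rose by a log2 fold of 2.71 ± 0.33 (SE; edgeR adjusted p = 2.39e-05) at codon 59 and 1.82 ± 0.25 at codon 60, HIST2H2BE and its window partners by 1.93 ± 0.26 at codon 60, and H2BC3 by 2.60 ± 0.41. Codon 60 of H2BC3 was thinly read with vehicle, at a mean of 1.19 CPM against 6.93 CPM with 1.5 μM. So were codon 59 of H2BC11, at 2.45 against 16.6 CPM, and codon 59 of H2BC14, at 1.07 against 5.78 CPM. How many of the 27 met the minimum through the treated libraries alone was not counted, so the 27 are described and not taken as support. The same holds for the counts at 10 and 60 min below. H2BC17 had a log2 fold of 0.24 ± 0.29 at codon 60 (edgeR adjusted p = 1.00). Called codons outside H2B were codon 102 of H3C4, codon 47 of H2AC13 and H2AC14, and codon 68 of H2AC16.

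At 10 min, 494 of 3074 member codons were called, 413 of them higher, against 10.1% of 47119 codons in the background. The calls fell on all classes, with 125 in H2A, 150 in H2B, 85 in H3 and 134 in H4. In H2B, 117 were higher and 33 lower. The lower ones included codon 105 in 14 of 16 members tested (median log2 fold -1.16) and codon 126 in 5 of 8 (median -1.42), 2 codons named after their values were seen. Their summed footprints were 0.48- and 0.44-fold of vehicle at 10 min, 0.72- and 0.69-fold at 60 min and 0.92- and 0.72-fold in study 2, and codon 105 overlapped with vehicle in the last 2 comparisons. The number of member codons called rested on single libraries: it was 32 without replicate 2 of 1.5 μM, 66 without replicate 2 of the vehicle, 232 and 247 without replicate 1 of 1.5 μM and of the vehicle, and 1367 without replicate 3 of the vehicle. The share of all codons called moved with it, and was 0.211, 0.702, 3.84, 5.29 and 26.2% in the same order. At codons 59 and 60 of H2B 32 of 33 tested were called, all higher, with a log2 fold of 2.97 ± 0.33 for codon 59 of H2BC11 (edgeR adjusted p = 0.00263) and 1.37 ± 0.31 for codon 60 of H2BC17 (adjusted p = 0.0326). Those 32 fell to 14 without replicate 2 of 1.5 μM and to 23 without replicate 2 of the vehicle, and lay between 30 and 33 without any other library. At 60 min in study 1 edgeR called 0 of 3154 member codons (0.0% of the 55189 codons tested), with 173 member codons at an unadjusted p under 0.05 (1539 of all codons), 106 of them higher, and 31 of the 32 tested H2B codons 59 and 60 among these. The lowest adjusted p there was 0.298. Same-numbered libraries deviated together at this time, which was taken as pairing. With the number as a block in the edgeR fit 55 member codons were called, 53 of them higher, where the background was 0.399%. Of the 55, 54 lay in H2B and 31 at codons 59 and 60, and codon 59 of H2BC11 had a log2 fold of 3.54 ± 0.33 (adjusted p = 0.000263).

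The lower dose gave smaller differences at the same codons. With 0.3 μM edgeR called 0 member codons at 10 min and 0 at 60 min (0.0% of all codons at each time), with 16 of 3163 and 23 of 3345 member codons at an unadjusted p under 0.05, where 248 of 57455 and 196 of 64844 codons were. All 32 tested H2B codons 59 and 60 had a log2 fold above 0 at both times, with medians of 0.75 and 0.99. Between 1.5 and 0.3 μM at 10 min edgeR called 0 of 3025 member codons (0.0% of all), with 415 at an unadjusted p under 0.05 (2713 of all 44855 codons), and all 33 tested H2B codons 59 and 60 were above 0 with a median log2 fold of 1.30. In the mRNA libraries 13 member codons had enough reads and edgeR called 0 (0.0% of all), with 0 at an unadjusted p under 0.05.

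A measure of where footprints build up along a transcript, the Dmax value, was also computed for every transcript. It is the largest excess of the cumulative share of footprints in treated over vehicle cells. The Z-score here divides Dmax by its root mean square over transcripts of similar depth, without subtracting their mean. Taken instead as the distance from that mean in SD, a minimum of 2 gave the same 8 members at 60 min and 7 at 10 min (3.46 and 4.26% of all transcripts). At 60 min 8 of the 52 members had a Z-score of at least 2, where 2.72% of 11442 transcripts did, and at 10 min 7 did (3.56% of 11422). The 8 became 14 without replicate 1 of the vehicle (2.58% of all transcripts) and 13 without replicate 3 of 1.5 μM (2.77%). In study 2 the number was 15 (2.27% of 11405). Every one of these members was an H2B gene, and the position of the maximum lay at codons 61 to 67, 62 to 64 and 61 to 63. Close copies share reads at the peak, so these members are not separate measurements. The 8 members at 60 min were H2BC3, H2BC8, H2BC11, H2BC12, H2BC18, H2BC26, HIST1H2BN and HIST2H2BE. The highest Z-score was 5.17 at 60 min, 2.96 at 10 min and 4.69 in study 2, and over H2A, H3 and H4 it was at most 1.77 in the 3 comparisons. As the distance from the mean in SD, the highest values were 5.83, 3.68 and 5.42 in the same order.

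Over whole coding sequences, footprints on all 4 classes were more abundant after 10 min of 1.5 μM. H2A summed to 8892, 8453 and 11374 CPM with vehicle and 14085, 13256 and 12283 CPM with 1.5 μM. H2B summed to 9069, 8532 and 11826 against 12589, 14201 and 14066 CPM. The treated libraries lay above the vehicle libraries in both classes. H3 summed to 10624, 11000.1 and 14064 against 16536, 16047 and 14769 CPM, and H4 to 11026, 9189.8 and 13512 against 16449, 16889.8 and 15368 CPM. The groups did not overlap in any class, and the folds were 1.38, 1.39, 1.33 and 1.44 in the order H2A, H2B, H3 and H4. With 0.3 μM every class overlapped with vehicle at this time.

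**Figure D4:**
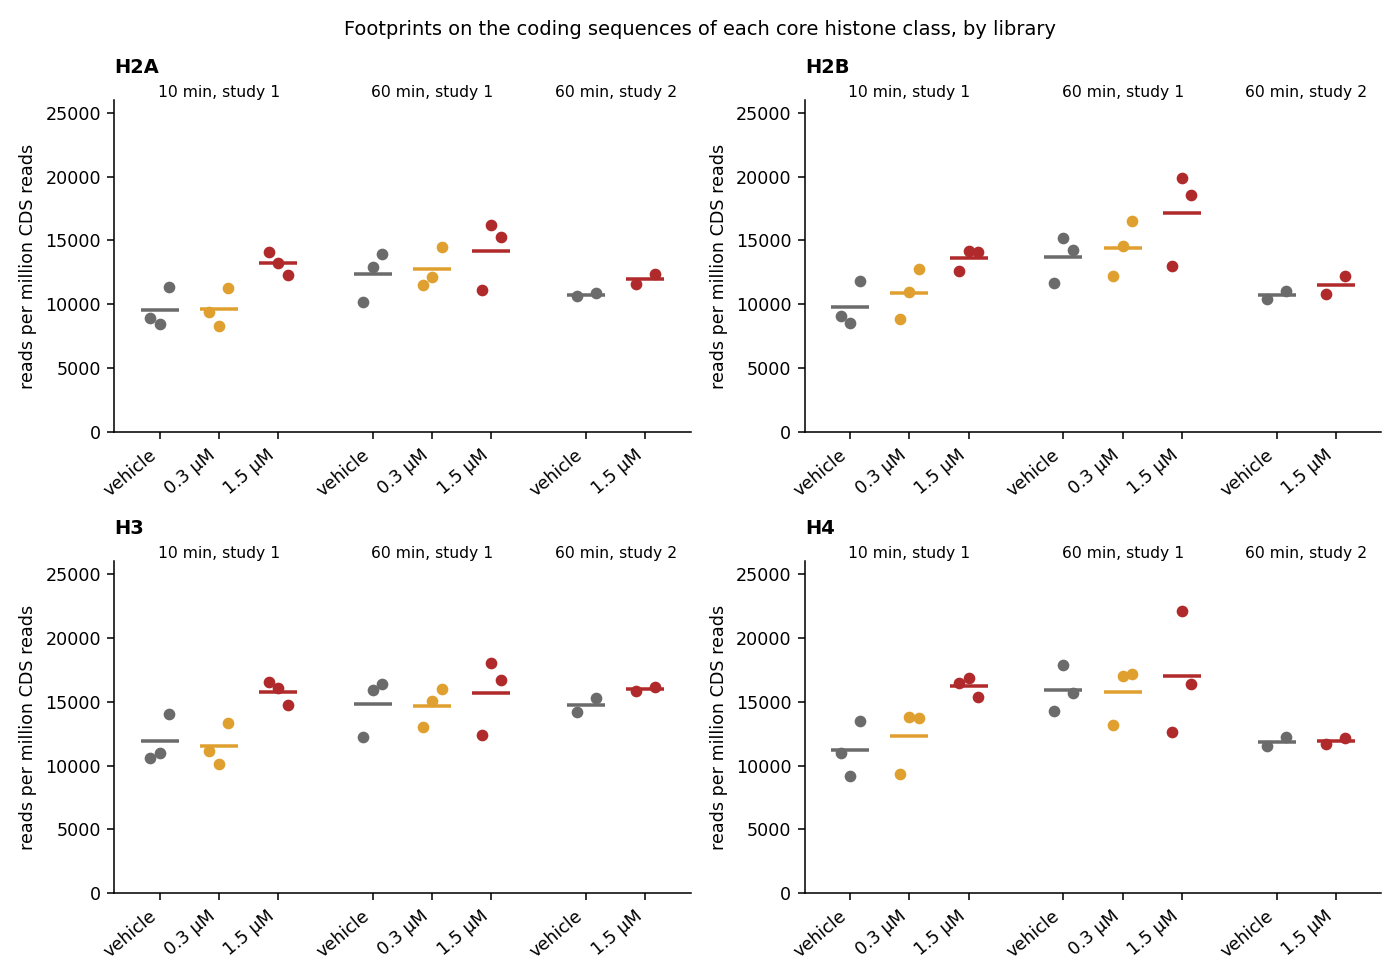
Footprints summed over the coding sequences of each core histone class in each footprint library, in CPM on a linear axis from 0, with bars at the group means. At 10 min the 3 libraries at 1.5 μM lie above the 3 vehicle libraries in every class, at 60 min in study 1 they overlap as groups, though within pairs of the same replicate number 1.5 μM is higher in 3 of 3 for H2A, H2B and H3, and in study 2 they are apart for H2A and H3 and overlap for H2B and H4.

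Gene by gene, edgeR's quasi-likelihood test on coding-sequence counts called 13 of the 52 members at 10 min, all higher, where 0.851% of 11045 transcripts were called and 0.462% were called higher. By class the calls were 3 of 13 H2A, 3 of 17 H2B, 1 of 11 H3 and 6 of 11 H4 members, and the median log2 fold was 0.43, 0.40, 0.41 and 0.51. Over all 52 members the median was 0.44 with 51 above 0, and over all transcripts tested it was 0.01. In 38 members every treated library exceeded every vehicle library, where 11.5% of the 9614 transcripts compared did. The number of members called rested on single libraries. It was 1 without replicate 1 or 2 of 1.5 μM or replicate 1 of the vehicle, 7 without replicate 3 of 1.5 μM, 8 without replicate 2 of the vehicle and 47 without replicate 3 of the vehicle. Of all transcripts, 0.108, 0.108, 0.081, 0.54, 0.514 and 14.9% were called in these 6 fits, in the same order. DESeq2 called 36 members and 4.67% of all transcripts.

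Among H2A members, H2AC20 held 887, 800.1 and 1029 CPM with vehicle and 1523, 1315 and 1224 CPM with 1.5 μM at 10 min, a log2 fold of 0.58 ± 0.12 (edgeR adjusted p = 0.0654). H2AC21 rose from 277, 309 and 341 to 549, 461 and 383 CPM (0.59 ± 0.13; adjusted p = 0.0863). H2AC14 rose by 0.62 ± 0.14 (adjusted p = 0.0971), but at codons with a sequence of their own its log2 fold was -0.17, so that the rise rests on reads shared with other genes. H2AC20 drew 16.1% of its footprints at such codons. H2AC25 had a log2 fold of 0.70 ± 0.18 that did not pass (adjusted p = 0.123).

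Among H2B members, HIST1H2BN held 364, 299.7 and 518 CPM with vehicle and 881, 1018 and 907 CPM with 1.5 μM at 10 min. This was the largest fold among the members, at 1.25 ± 0.16 on the log2 scale (edgeR adjusted p = 0.00529). Only 14.4% of the footprints of HIST1H2BN and 28.4% of those of H2BC26 lay at codons with a sequence of their own. The values of both therefore rest largely on shared reads. H2BC26 rose from 671, 552 and 874 to 1089, 1207 and 1238 CPM (0.75 ± 0.14; adjusted p = 0.0518), and H2BC11 from 502, 409.7 and 659 to 857, 854 and 906 CPM (0.73 ± 0.14; adjusted p = 0.0547). All 3 were apart from vehicle in every library. These rises lay in the first part of the coding sequence: with H2B reads counted only after codon 62, the log2 fold was 0.27 for HIST1H2BN, 0.03 for H2BC26 and -0.09 for H2BC11, no H2B member was called, and the H2B median was 0.003. H2BC10 and H2BC3 had log2 folds of 0.15 ± 0.11 and 0.13 ± 0.12 over the whole coding sequence and did not pass.

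Of the H3 members only H3C1 was called. It held 419, 372 and 511 CPM with vehicle and 709, 802 and 610.4 CPM with 1.5 μM at 10 min, a log2 fold of 0.70 ± 0.13 (edgeR adjusted p = 0.0493). H3C12, the member with fewest footprints per length, held 89.5, 104 and 96.1 against 109.8, 93.9 and 79.9 CPM, with a log2 fold of -0.03 ± 0.13. It was the single member below 0.

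H4 had the most calls. H4C1 held 472, 359 and 553 CPM with vehicle and 862, 932 and 758 CPM with 1.5 μM at 10 min (0.88 ± 0.14; edgeR adjusted p = 0.0226). H4C9 rose from 369, 296 and 462 to 776, 694 and 593 CPM (0.87 ± 0.15; adjusted p = 0.0286). H4C4, whose codons all have a sequence of their own, rose from 384, 376 and 433 to 617, 665 and 555 CPM (0.62 ± 0.11; adjusted p = 0.0266). H4C8, H4C16 and H4C2 were called with log2 folds of 0.59, 0.55 and 0.51.

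At 60 min the class sums of treated and vehicle libraries overlapped. With vehicle they were 10208, 12958 and 13954 CPM for H2A, and with 1.5 μM 11127, 16191 and 15252 CPM. For H2B they were 11648, 15155 and 14287 against 12980.1, 19931 and 18533 CPM. For H3 they were 12237, 15936 and 16372 against 12404, 18049 and 16666 CPM, and for H4 14286, 17898 and 15692 against 12652, 22119 and 16393 CPM. In each class replicate 1 was lowest in both groups. Same-numbered libraries deviated together here and were taken as pairs. Within pairs the 1.5 μM library was the higher in 3 of 3 for H2A (1.09- to 1.25-fold), H2B (1.11- to 1.32-fold) and H3 (1.01- to 1.13-fold) and in 2 of 3 for H4 (0.89- to 1.24-fold). Of the members, 23 of 52 were higher in every pair, where 14.6% of 9623 transcripts were. The folds of the means were 1.15 for H2A, 1.25 for H2B, 1.06 for H3 and 1.07 for H4.

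In the fit of 60 min, edgeR called 0 of 52 members, where 0.0726% of 11021 transcripts were called. There were 6 members at an unadjusted p under 0.05 (242 of all transcripts), all higher and all H2B, and DESeq2 called 2 (0.145% of all). In 2 members every treated library exceeded every vehicle library and in 1 member every one was lower, where 3.16% of 9623 transcripts were all higher and 3.25% all lower. With same-numbered libraries taken as pairs, edgeR called 5 members in the blocked fit where the background was 0.463%, all H2B and higher. HIST1H2BN rose by 1.04 ± 0.08 on the log2 scale, H2BC26 by 0.74 ± 0.07, H2BC11 by 0.60 ± 0.07, HIST2H2BE by 0.48 ± 0.07 and H2BC18 by 0.40 ± 0.08 (highest adjusted p of the 5, edgeR with block, 0.0298). HIST1H2BN held 437, 672 and 662 CPM with vehicle and 787, 1437 and 1474.5 CPM with 1.5 μM. Its treated libraries were all above the vehicle libraries. Without the block its log2 fold was 1.06 ± 0.23 (adjusted p = 0.364). With H2B reads counted only after codon 62, no member was called at 60 min, 0 were at an unadjusted p under 0.05, and the H2B median log2 fold was -0.05. H4C1, among the largest rises at 10 min, held 547, 922 and 682 CPM with vehicle and 536, 1204 and 765 CPM with 1.5 μM, which overlapped.

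The difference between the effect at 60 and at 10 min was tested as an interaction in the same samples. The log2 effect was smaller at 60 min in 50 of 52 members, with a median difference of -0.28. The share of all transcripts with a smaller effect is not given here, and close copies share reads, so the 50 cannot be set against a background. EdgeR called 0 of the members and 0.0% of 11167 transcripts, with 4 members (506 of all transcripts) at an unadjusted p under 0.05 and 0 called by DESeq2. At H2B codons 59 and 60 alone the fold over vehicle was 6.46 at 60 min and 5.30 at 10 min. The lowest values were -0.67 ± 0.34 for H4C1 and -0.56 ± 0.25 for H4C8. H2BC26 and HIST2H2BE stood at 0.00 ± 0.29 and 0.00 ± 0.26.

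In study 2, H2A summed to 10631 and 10895 CPM with vehicle and 11585 and 12373 CPM with 1.5 μM, and H3 to 14227 and 15259.9 against 15817 and 16161 CPM. These groups were apart, by 1.11-fold for H2A. H2B summed to 10436 and 11074 against 10812 and 12204 CPM, and H4 to 11513 and 12246 against 11661 and 12163 CPM, and these overlapped. EdgeR called 1 of 52 members, where 0.115% of 11263 transcripts were called, and 16 members (335 of all transcripts) were at an unadjusted p under 0.05. The called member was H2AC25, which held 273 and 264 CPM with vehicle and 359 and 379.9 CPM with 1.5 μM, a log2 fold of 0.46 ± 0.06 (adjusted p = 0.0185), and it was also the 1 member called by DESeq2 (0.151% of all). It was lost without replicate 5 of the vehicle, when 0 members and 0.114% of all transcripts were called, and 4 members and 0.272% of all were called without replicate 4 of 1.5 μM. In 22 members both treated libraries exceeded both vehicle libraries, against 14.6% of 9823 transcripts.

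HIST1H2BN held 375 and 360.1 CPM with vehicle and 419.5 and 481 CPM with 1.5 μM in study 2, a log2 fold of 0.29 ± 0.07 that did not pass (edgeR adjusted p = 0.728). With H2B reads counted only after codon 62, the H2B median log2 fold in study 2 was -0.17, with 9 H2B members at an unadjusted p under 0.05, all lower, and no H2B member called. The share of all transcripts at that p in this fit is not given here, so the 9 cannot be set against a background. The lowest members over whole coding sequences were H4C8 and H4C5, at -0.09 ± 0.07 and -0.03 ± 0.07.

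**Figure D5:**
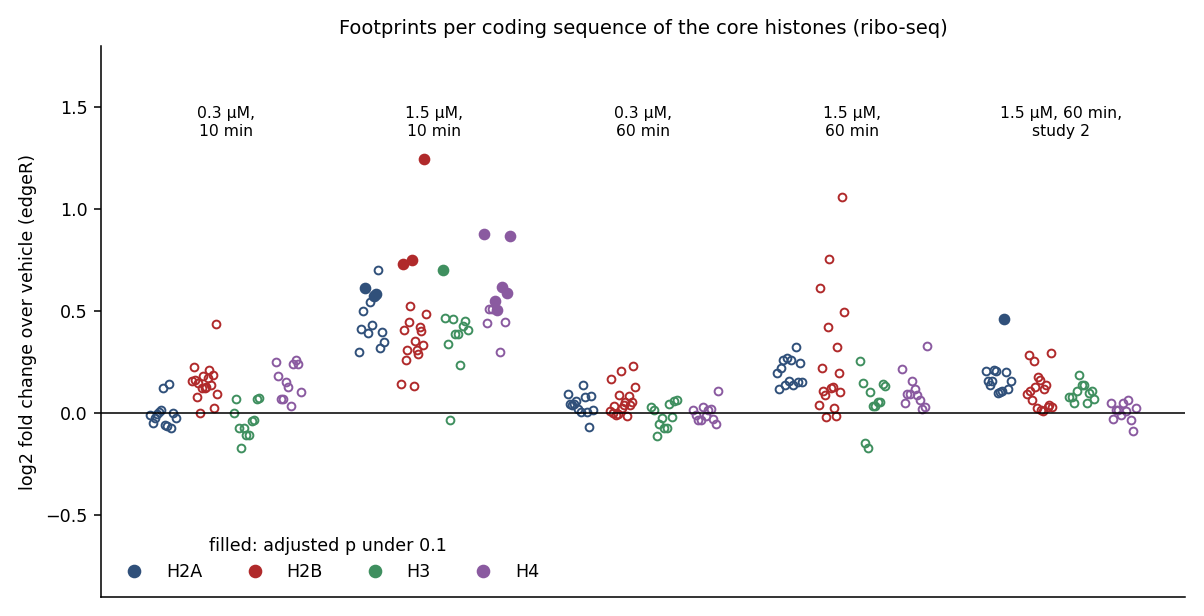
Log2 fold change over vehicle (edgeR) of each member with 0.3 and 1.5 μM at 10 and 60 min and with 1.5 μM in study 2, coloured by class, with filled points where the adjusted p was under 0.1. With 1.5 μM at 10 min 51 of 52 members lie above 0 and 13 are filled, at 60 min 0 are filled, in study 2 only H2AC25 is filled, and with 0.3 μM none is.

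With 0.3 μM no member was called at either time. At 10 min edgeR called 0 members and 0.0% of 11131 transcripts, with 0 members at an unadjusted p under 0.05, 0 called by DESeq2 and a median log2 fold of 0.07. At 60 min it called 0 members and 0.0% of 11141 transcripts, again with 0 at an unadjusted p under 0.05 and 0 called by DESeq2, and the median was 0.02. HIST1H2BN had the highest log2 fold of the members with 0.3 μM at both times, at 0.44 ± 0.21 and 0.23 ± 0.19.

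Between the doses at 10 min, edgeR called 0 members and 0.0% of 11032 transcripts, with 37 members (1273 of all transcripts) at an unadjusted p under 0.05, all higher with 1.5 μM, and 21 called by DESeq2 (0.87% of all). Same-numbered libraries deviated together here too and were taken as pairs. With the block edgeR called 33 of 52 members, all higher, where the background was 3.54%. The calls were 10 of 13 H2A, 7 of 17 H2B, 9 of 11 H3 and 7 of 11 H4 members. HIST1H2BN and H4C9 had the highest log2 folds in that fit, 0.84 ± 0.11 and 0.77 ± 0.12, and H2BC10 and H2BC3 the lowest without the block, at -0.01 ± 0.12 and 0.01 ± 0.14.

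The poly-A mRNA of core histones did not change detectably. H2A summed to 268 and 391 CPM with vehicle and 265 and 352 CPM with 1.5 μM, H2B to 329.7 and 435 against 338 and 431 CPM, H3 to 169 and 308 against 176 and 246 CPM, and H4 to 315 and 457 against 289.6 and 407 CPM. The replicates differed by more than the groups in each class. EdgeR called 0 members and 0.0% of 11812 transcripts, with 0 members at an unadjusted p under 0.05 and 0 called by DESeq2, and the median log2 fold was -0.10. Translational efficiency, tested as the interaction of footprints and mRNA in 1 edgeR model, gave 0 members called where the background was 0.0339%, 3 members (H2AC25, H2AC4 and H4C9) and 357 of all 11799 transcripts at an unadjusted p under 0.05, and 0 by DESeq2. Its median log2 difference was 0.20. Without the mRNA library of vehicle replicate 4, 7 members and 1.08% of all transcripts were called.

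Genes that make, process or deposit histones were compared alongside. Of 30 such genes, 28 were in the tables, and edgeR called 0 of them in any comparison. For 1.5 μM at 10 min 5 were at an unadjusted p under 0.05, a count given without the share of all transcripts at that p. In that fit 11 of 28 had a log2 fold above 0, the median was -0.01 and the range was -0.53 to 0.28. SLBP, which binds the histone stem-loop, stood at -0.10 at 10 min, 0.00 at 60 min and 0.04 in study 2, and NPAT, an activator of histone transcription, at -0.38, 0.04 and 0.33. NASP, a histone chaperone, was at -0.19, -0.24 and -0.004 and CHAF1B, a subunit of the chromatin assembly factor, at -0.20, 0.06 and -0.02 in the same order of comparisons. SLBP, NPAT, NASP and CHAF1B all lay below 0 at 10 min. UPF1, on the same list, went the other way, from a mean of 248 CPM with vehicle to 303 CPM with 1.5 μM. Of 20 S-phase genes 18 were in the tables and 0 were called in any comparison, with a median log2 fold of -0.07 at 10 min. At that time 3 were at an unadjusted p under 0.05, again without the share of all transcripts beside it. Of the 16 replacement and linker histones 1 was called at 10 min, H2AX, whose mRNA can also end in a stem-loop, at 0.74 ± 0.15 (edgeR adjusted p = 0.065). Over the 16 the log2 fold ran from -0.38 to 0.74, with a median of 0.04 and 10 above 0. H1-1, H1-2, H1-3, H1-4 and H1-5, also with stem-loop mRNAs, had means of 257, 750, 74.3, 657 and 668 CPM with vehicle. With 1.5 μM these were 258, 578, 66.8, 532 and 657 CPM.

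The share of footprints in the first codons also differed between the studies in vehicle cells for H2A, H3 and H4, and overlapped for H2B. Codons 1 to 50 held 16.3 ± 1.1% (SD, n = 3) of H2A footprints in the 60 min vehicle libraries of study 1 and 31.0 ± 2.94% (n = 2) in those of study 2. The second-last codon held 7.93 to 16.8% of H2A footprints in study 1 at 60 min and 4.50 to 4.64% in study 2. Codons 1 to 50 held 12.8 ± 1.32% and 17.1 ± 0.514% of H3 footprints, 23.8 ± 1.3% and 26.8 ± 0.744% of H4 footprints, and 24.4 ± 5.89% and 25.1 ± 2.56% of H2B footprints. The studies were prepared apart, and how far such differences touch the smaller peak of study 2 was not tested.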

How the data were processed

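The deposited files hold raw read counts per codon for 12325 coding sequences in 26 libraries, of which 22 are footprint and 4 are mRNA libraries. Per the labels and the study's methods, the authors aligned trimmed, rRNA-depleted reads with Bowtie 1.1.2 to 1 transcript per gene, the most abundant isoform by kallisto 0.42.5 (Ensembl, GRCh38), kept the best alignments of reads with at most 5 such places, and assigned each footprint to its P-site codon by a fixed offset. The reference was limited to genes with poly-A mRNA reads above a minimum, which bears on which histone copies could be counted. DESeq is also named in the submitters' processing notes.

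Counts were summed per coding sequence and tested with edgeR 4.0.16 (filterByExpr, TMM, quasi-likelihood) in R 4.3.3, with Benjamini-Hochberg adjustment over all transcripts and a call at FDR 0.1. Each comparison used its own groups only. The alternatives were DESeq2 1.42.0 as test or size factors, no filter, FDR 0.05, unique windows, 15 codons left out at each end, reads after codon 50, the replicate number as a block and each library left out. Single-codon fits, reads after H2B codon 62 and the H2B codon sums were added after the data were seen. Group folds are ratios of mean CPM, with no test. Dmax was computed on summed replicates with at least 10 reads per group in bins of 300 transcripts. Scripts were tested on simulated data. The window sequences of HIST1H2BN and HIST2H2BE were read from H2BC15 and H2BC21, which RefSeq lists under those older names.

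The members and the gene lists were chosen with earlier results of these data known. Named members are those past FDR 0.1, for each comparison the pair of highest and the pair of lowest folds where a mean of 50 reads was reached, and the extremes of the ratio and of unique reads. H2B members at single codons, H2BC17 and H2AC4 were named after their values were seen.

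Replicate libraries differed by more than counting noise (chi-square per degree of freedom at least 4.85). In study 1 the numbers are those of the titles, and same-numbered libraries deviated together from their group means in every pair at 60 min (correlations 0.41 to 0.53 for 1.5 μM, 0.43 to 0.56 for 0.3 μM), for 0.3 μM at 10 min (0.16 to 0.54) and between doses (0.22 to 0.38). For 1.5 μM against vehicle at 10 min they did not in every pair (0.06 to 0.24). The titles do not say that same-numbered libraries were handled together. Pairing was thus chosen from these data, and the blocked calls depend on that choice. Footprint and mRNA libraries of study 2 came from the same samples.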

Additional observations from a re-analysis of the deposited data

How the results depend on the processing

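With 3 or 2 libraries per group, the number of members called moved with single libraries, and members with identical windows are a single measurement. Depth limited what could be seen at thinly read codons, such as codon 59 of H2BC17. The direction was followed where a named member was called in the main fit or in the alternative. It then held in all but 2 alternatives. H2AC14 at 10 min was at -0.17 with unique windows only, and H2BC11 at -0.093 with H2B reads after codon 62. Changes of sign in a member called in neither fit were not counted. The 13 members called for 1.5 μM at 10 min became 5 at FDR 0.05 (29 of 11045 transcripts), 36 with DESeq2 (4.67% of all), 8 with unique windows (0.68%), 8 with H2B reads after codon 62 (0.67%), 29 without the first and last 15 codons (2.13%) and 46 with the replicate block, a fit in which 10.8% of all transcripts were called. At 60 min 0 became 2 with DESeq2, 5 with the block and 1 without the end codons (0.0921% of all). Between doses 0 became 21 with DESeq2 and 33 with the block, and in study 2 1 became 18 with the block, where 1.15% of all were called. Same-numbered libraries did not all deviate together for 1.5 μM at 10 min (correlations 0.06 to 0.24), and study 2 has only 2 pairs (0.30), so these blocked counts rest on a shared number alone. In the other comparisons the block changed no count of members called. Single codons called were 198 at FDR 0.05 at 10 min (1960 of all 47119 codons), 55 with the block at 60 min (0.399% of all) and 113 with the block in study 2 (0.828%). Members with a high Dmax at 10 min were 0 at a Z-score of 3, though as the distance from the mean in SD H2BC7 stood at 3.68 and HIST1H2BN at 3.16. Leaving out 1 library gave 1 to 47 members called at 10 min, 0 to 1 at 60 min, 0 to 4 in study 2, 0 to 7 for translational efficiency and 0 in the other comparisons. It gave 32 to 1367 codons at 10 min, 0 at 60 min and 36 to 99 in study 2, and 7 to 10 members with a high Dmax at 10 min and 7 to 14 at 60 min. The folds at H2B codons 59 and 60 with 1 library left out were 4.51 to 6.39, 5.20 to 7.73 and 2.96 to 3.59 with 1.5 μM, 1.58 to 2.32 and 1.67 to 2.48 with 0.3 μM, and 0.65 to 1.05 in mRNA. Without the last 15 codons, codons 1 to 50 held 21.4% of H2A, 15.8% of H3 and 30.4% of H4 footprints in vehicle cells at 60 min. The cause of these shifts was not tested.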
